A study of Mus musculus with 6 samples.

Results

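The genes of the TBK1 and IKK kinase complexes were examined in the mouse fibroblast line L929, in 3 control samples (genotype WT) and 3 samples labelled STING KO. The 10 genes were taken by symbol from the deposited gene table: the kinase genes Tbk1 and Ikbke, the IKK complex genes Ikbkb, Chuk and Ikbkg, the TBK1-binding adaptor genes Tank, Azi2 and Tbkbp1, and the ubiquitin ligase genes Traf3 and Traf6. All 10 were found among the 27507 gene identifiers and all 10 were among the 12408 genes tested. The series asks how loss of STING affects gene expression. Neither group carries a treatment in the labels, and whether the STING KO cells are 1 clone is not given in the sources used here. The labels do not state that replicates came from different cultures. The p-values therefore reflect the spread among these 6 samples alone, and that spread may be technical.

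STING is an adaptor of the endoplasmic reticulum that is switched on by the cyclic dinucleotide made by the DNA sensor cGAS. Activated STING recruits TBK1, which phosphorylates STING and then IRF3, the transcription factor that drives interferon beta. IKK epsilon, the product of Ikbke, is the closest relative of TBK1, and TANK, NAP1 (the product of Azi2) and SINTBAD (the product of Tbkbp1) are coiled-coil adaptors that bind both kinases. The IKK complex, made of the kinases IKK alpha (Chuk) and IKK beta (Ikbkb) and the regulatory subunit NEMO (Ikbkg), phosphorylates IkB proteins and so releases NF-kB. TRAF3 and TRAF6 are ubiquitin ligases that connect receptors and adaptors to these kinases.

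None of the 10 kinase complex genes was called different between STING KO and control. Tbk1, Ikbkb and Tbkbp1 were at 101%, 100.03% and 101% of their control means, while Traf3, Ikbke and Chuk had the lowest STING KO levels, at 84.5%, 83.8% and 86.7% of control. Sting1 RNA itself was at 26.9% of control. In the fit with limma, 0 of the 10 genes passed an adjusted p of 0.05 in either direction, against 0.258% of all genes tested, all of them lower in STING KO. At an unadjusted p of 0.05 there were 3, Traf3, Ikbke and Chuk, all with a negative sign, against 6.37% of all genes tested in either direction and 3.18% lower. limma-voom also called 0 of the 10. The authors' deposited table has 0 of the 10 past an adjusted p of 0.05, against 0.294% of its genes with an adjusted p.

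**Figure D1:**
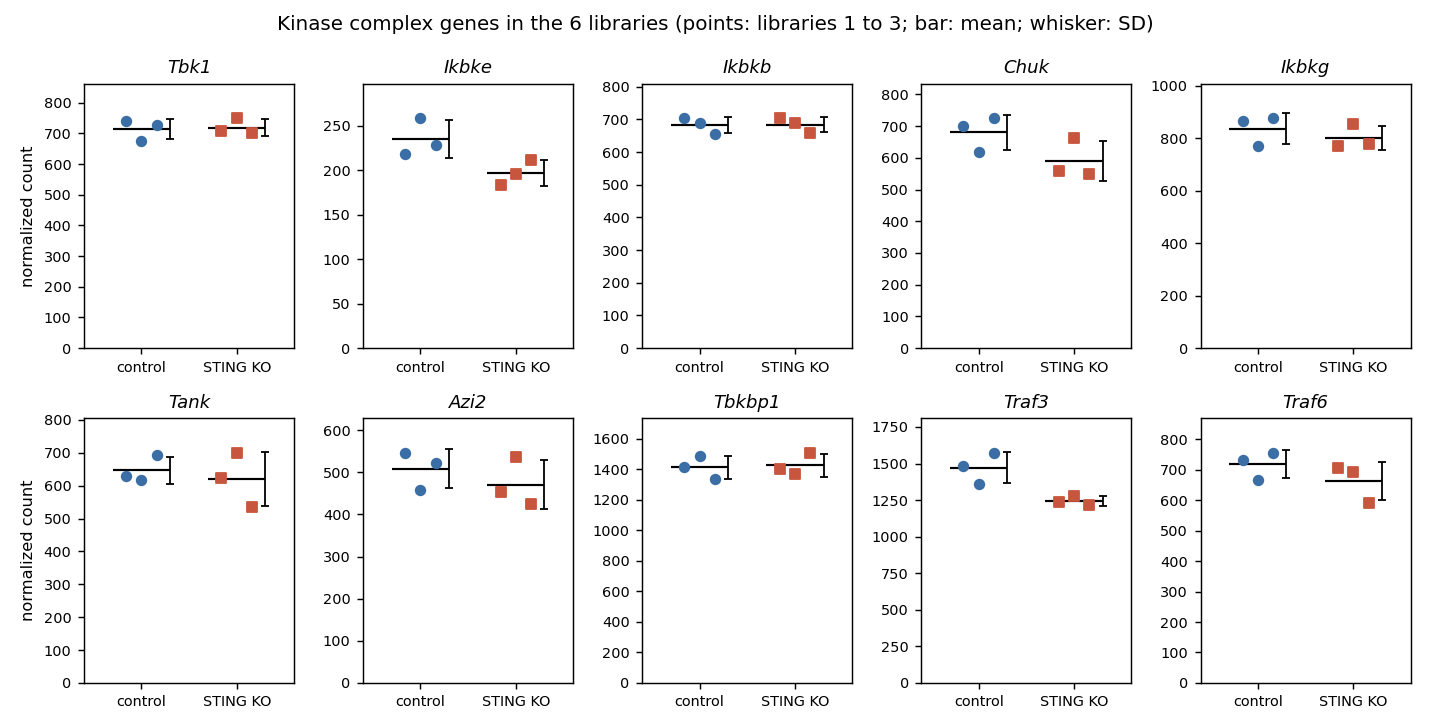
Normalized counts of the 10 kinase complex genes in each of the 3 control and 3 STING KO libraries, with the group mean and SD; each vertical axis starts at 0 and has its own scale. The groups do not overlap for Ikbke and Traf3 and overlap for the other 8 genes.

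Promoter windows of 5 genes give background to the values. The window of Traf3 is shown because Traf3 had the smallest p of the 10. That of Ikbke is shown because its groups also did not overlap, and that of Tank because it holds the same motif as that of Traf3. Tbk1 is shown as the kinase that STING recruits, and Nfkbia as an IKK target called lower. RefSeq windows on GRCm38.p6 run from 250 bases before to 50 bases after an annotated start and were found for 9 of the 10 genes. The letters are 5′ to 3′ on the strand of the gene, and capitals mark matches, on either strand, to GGNNTTTCC, a form of the NF-kB site.
Traf3, chr12:111166120-111166419, plus strand: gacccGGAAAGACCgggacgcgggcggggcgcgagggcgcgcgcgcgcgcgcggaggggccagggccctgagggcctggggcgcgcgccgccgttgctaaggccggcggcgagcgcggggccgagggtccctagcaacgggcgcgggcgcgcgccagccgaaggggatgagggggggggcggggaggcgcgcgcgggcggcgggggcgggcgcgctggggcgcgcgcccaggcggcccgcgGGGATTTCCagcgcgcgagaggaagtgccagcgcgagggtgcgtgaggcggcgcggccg
Tank, chr2:61592902-61593201, plus strand: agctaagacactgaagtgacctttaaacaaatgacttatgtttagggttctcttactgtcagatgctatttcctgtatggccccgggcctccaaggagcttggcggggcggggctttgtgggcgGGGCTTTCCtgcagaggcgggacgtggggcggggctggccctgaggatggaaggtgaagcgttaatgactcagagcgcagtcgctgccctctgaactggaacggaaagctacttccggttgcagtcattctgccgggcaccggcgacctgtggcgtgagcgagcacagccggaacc
Ikbke, chr1:131279514-131279813, minus strand: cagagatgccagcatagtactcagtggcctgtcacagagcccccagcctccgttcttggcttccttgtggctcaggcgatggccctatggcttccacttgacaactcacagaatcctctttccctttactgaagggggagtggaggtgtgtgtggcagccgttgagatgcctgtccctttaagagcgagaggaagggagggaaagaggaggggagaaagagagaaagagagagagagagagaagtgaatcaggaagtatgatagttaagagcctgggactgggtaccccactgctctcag
Tbk1, chr10:121586745-121587044, minus strand: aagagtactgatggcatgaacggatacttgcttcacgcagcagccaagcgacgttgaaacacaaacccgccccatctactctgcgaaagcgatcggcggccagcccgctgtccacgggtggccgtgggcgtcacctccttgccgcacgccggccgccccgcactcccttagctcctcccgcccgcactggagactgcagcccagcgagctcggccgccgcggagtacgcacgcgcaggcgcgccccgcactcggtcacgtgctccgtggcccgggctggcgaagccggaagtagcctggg
Nfkbia, chr12:55492598-55492897, minus strand: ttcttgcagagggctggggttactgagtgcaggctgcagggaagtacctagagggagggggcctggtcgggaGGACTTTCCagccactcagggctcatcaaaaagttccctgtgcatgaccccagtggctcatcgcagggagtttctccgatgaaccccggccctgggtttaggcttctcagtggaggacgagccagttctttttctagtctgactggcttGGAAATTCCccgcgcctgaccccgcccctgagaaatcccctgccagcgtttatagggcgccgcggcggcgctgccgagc

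In the Traf3 window the matches begin 245 and 9 bases before the annotated start, in that of Tank 126 bases before it and in that of Nfkbia 178 and 29 bases before it. The windows of Ikbke and Tbk1 hold no match. Windows of Tnip1 and Nfkb2, also called lower, were searched and are not shown. That of Tnip1 holds no match, and those of Nfkb2, some of which overlap, hold 1 each. Of the 16 windows of the 9 genes, 3 held a match, 1 of Traf3 and 2 of Tank that overlap each other. Of all 32851 windows, 5.82% did. The other windows of Tank and those of Chuk, Azi2, Traf6, Ikbkg and Tbkbp1 hold no match to GGNNTTTCC and are not shown. GAAANNGAA, the core of the interferon-stimulated response element, was in 1 of the 16 windows, at another annotated start of Tbkbp1, and in 8.56% of all windows. The Nfkbia window also holds 1 match to it, 53 bases before the start and not marked above. The motifs can overlap, and each was searched on its own. These are descriptions of letters in short windows, and no binding was measured.

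Sting1, the targeted gene (Tmem173 in the table, ENSMUSG00000024349), had 329, 313 and 311 normalized counts in control and 82.1, 80.6 and 93.4 in STING KO. A normalized count is a gene count divided by a size factor of its library. Every STING KO library lay below every control library, and limma gave a log2 difference of -1.90 (SE 0.09, adjusted p = 9.72e-06). Library totals ran from 14382072 to 14526606 normalized counts. Of the 11 fibroblast markers, 9 were tested, and Dcn and Lum were below the minimum. Dcn had 94.4 and 32.7 normalized counts in control 3 and STING KO 1 and 0 to 4.99 elsewhere. The 13 hepatocyte markers summed to 5868 and 5545 in these same 2 libraries and to 357 to 828 in the other 4, and none of the 13 was at 0 in any library. The 10 leukocyte markers summed to 775 to 903 in control and 823 to 972 in STING KO, with up to 3 of them at 0 in a library. Their part in the results below was not tested, and log2 fold changes without control 3 and STING KO 1 are given for the 10 genes and the pathway genes called. For Sting1 that value was -1.89.

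Tbk1, which encodes the kinase that STING recruits, was at the same level in both groups to within the spread of the libraries. The gene (ENSMUSG00000020115, protein coding, chromosome 10, 121546455 to 121586787 on the minus strand of GRCm38) had 739, 676 and 727 normalized counts in control. It had 707, 750.0 and 699.9 in STING KO. The highest library of all 6 was a STING KO library and the lowest a control library. The ranges of the groups overlapped between 699.9 and 739 normalized counts. The means were 714 ± 33.2 and 719 ± 27.0 (SD, n = 3 each), and limma put the log2 fold change at 0.01 (SE 0.06, adjusted p = 0.965). Its 95% interval, -0.13 to 0.15, places the STING KO level between 91.4% and 111% of control.

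Ikbke, which encodes IKK epsilon, had the lowest level relative to control of the 10 genes. The gene (ENSMUSG00000042349, protein coding, chromosome 1, 131254343 to 131279606, minus strand) had 218, 258 and 228 normalized counts in control and 183, 195 and 212 in STING KO. All 3 STING KO libraries lay below all 3 control libraries, but STING KO 3 and control 1 differed by less than the SD of either group. The means were 235 ± 21.1 and 197 ± 14.5 (SD, n = 3 each). The log2 fold change was -0.25 (SE 0.10, 95% interval -0.47 to -0.04), with a limma p of 0.0256 and an adjusted p of 0.738. Without control 3 and STING KO 1 it was -0.22. In bulk RNA, fewer cells with a transcript and less of it per cell cannot be told apart. In the annotation, 2 antisense genes overlap exons of Ikbke, and they were not analysed here. Whether the counting used strand is not given in the sources used here. Reads of both strands may be in these values.

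Within the IKK complex, Ikbkb was level between the groups, Ikbkg differed by less than its spread and Chuk was lower on average with overlapping groups. Ikbkb, encoding the kinase IKK beta (ENSMUSG00000031537, protein coding, chromosome 8, 22659212 to 22706589, minus strand), had 704, 690.3 and 657 normalized counts in control and 704, 688 and 659.8 in STING KO. The 2 groups cover almost the same range. The means were 684 ± 24.3 and 684 ± 22.3 (SD, n = 3 each), with a log2 fold change of 0.001 (SE 0.06) and a 95% interval from 91.2% to 109.8% of control. It had the smallest spread of the 10 genes in control, a coefficient of variation of 3.55%.

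Chuk, encoding the kinase IKK alpha (ENSMUSG00000025199, protein coding, chromosome 19, 44073335 to 44107480, minus strand), had 699, 618 and 725 normalized counts in control. In STING KO it had 559, 663 and 548. STING KO 2 lay above control 2, and the other 2 STING KO libraries lay below all controls. The means were 681 ± 55.6 and 590.2 ± 63.4 (SD, n = 3 each). The log2 fold change was -0.21 (SE 0.09, 95% interval -0.41 to -0.004), with a limma p of 0.0461 and an adjusted p of 0.738. Without control 3 and STING KO 1 it was -0.12.

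Ikbkg, encoding the regulatory subunit NEMO (ENSMUSG00000004221, protein coding, chromosome X, 74393290 to 74453854, plus strand), had 864, 770.1 and 876 normalized counts in control and 771, 852 and 777 in STING KO. The groups overlapped, with the lowest library among the controls. The means were 837 ± 58.0 and 800.2 ± 45.2 (SD, n = 3 each), with a log2 fold change of -0.06 (SE 0.07) and a 95% interval from 85.7% to 107% of control. Leaving out 1 library moved it between -0.12 (without control 2) and -0.03 (without control 3). Exons of Ikbkg overlap those of G6pdx, the glucose-6-phosphate dehydrogenase gene on the other strand. On average G6pdx had 3463 normalized counts for the control and 3654 for the STING KO libraries (log2 fold change 0.08, limma adjusted p = 0.742), and reads of the shared stretch may be assigned to either gene.

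The adaptor genes that tie TBK1 to its upstream partners did not differ beyond the spread of the libraries. Tbkbp1, encoding SINTBAD (ENSMUSG00000038517, protein coding, chromosome 11, 97136171 to 97151495, minus strand), had 1411, 1485 and 1336 normalized counts in control and 1401, 1365 and 1506 in STING KO. Its log2 fold change was 0.01 (SE 0.06), with a 95% interval from 91.7% to 111% of control. Tank, encoding the TRAF- and TBK1-binding adaptor TANK (ENSMUSG00000064289, protein coding, chromosome 2, 61578585 to 61654171, plus strand), had 631, 617 and 694 normalized counts in control and 623, 699.9 and 536 in STING KO. The highest and the lowest value of Tank are both STING KO libraries, whose coefficient of variation of 13.2% was the largest of the 10 genes. Its log2 fold change was -0.07 (SE 0.10), and it was 0.03 without STING KO 3.

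Azi2, encoding NAP1 (ENSMUSG00000039285, protein coding, chromosome 9, 118040499 to 118069794, plus strand), had 546, 457 and 522 normalized counts in control and 452, 536 and 424 in STING KO. STING KO 2 lay within the control range, and the other 2 STING KO libraries lay below the lowest control. The means were 508 ± 46.1 and 471 ± 58.1 (SD, n = 3 each), with a log2 fold change of -0.11 in limma (SE 0.10, adjusted p = 0.760) and a 95% interval from 79.0% to 108% of control. Leaving out 1 library moved it between -0.21 (without STING KO 2) and -0.04 (without STING KO 3).

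Of the TRAF genes, Traf3 had the smallest p of the 10 kinase complex genes and was not called. Traf3, encoding a ligase that also holds the noncanonical NF-kB kinase NIK in check (ENSMUSG00000021277, protein coding, chromosome 12, 111166370 to 111267153, plus strand), had 1485, 1358 and 1573 normalized counts in control. In STING KO it had 1237, 1279 and 1213. Every STING KO library lay below every control library. The means were 1472 ± 108 and 1243 ± 33.6 (SD, n = 3 each), a difference larger than either SD. The log2 fold change was -0.24 (SE 0.06, 95% interval -0.38 to -0.10), with a limma p of 0.00399 and an adjusted p of 0.476. In the authors' deposited table its log2 fold change is -0.24, with a p of 0.00216 and an adjusted p of 0.511. Over the alternatives run, its log2 fold change stayed between -0.30 and -0.19 and its adjusted p between 0.199 and 0.9998.

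Traf6, encoding the ligase of the Toll-like and interleukin-1 receptor pathways (ENSMUSG00000027164, protein coding, chromosome 2, 101678429 to 101701669, plus strand), had 734, 668 and 756 normalized counts in control and 708, 692 and 591 in STING KO. STING KO 3 lay below all other libraries and the rest overlapped. Its log2 fold change was -0.12 (SE 0.08, limma adjusted p = 0.742), and -0.04 without STING KO 3. Adjusted p-values from limma for the remaining genes were 0.997 for Ikbkb, 0.796 for Ikbkg, 0.826 for Tank and 0.950 for Tbkbp1. Without control 3 and STING KO 1, the log2 fold change was 0.04 for Tbk1, -0.05 for Ikbkb and -0.003 for Ikbkg. It was -0.03 for Tank, -0.07 for Azi2, -0.01 for Tbkbp1, -0.19 for Traf3 and -0.13 for Traf6.

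**Figure D2:**
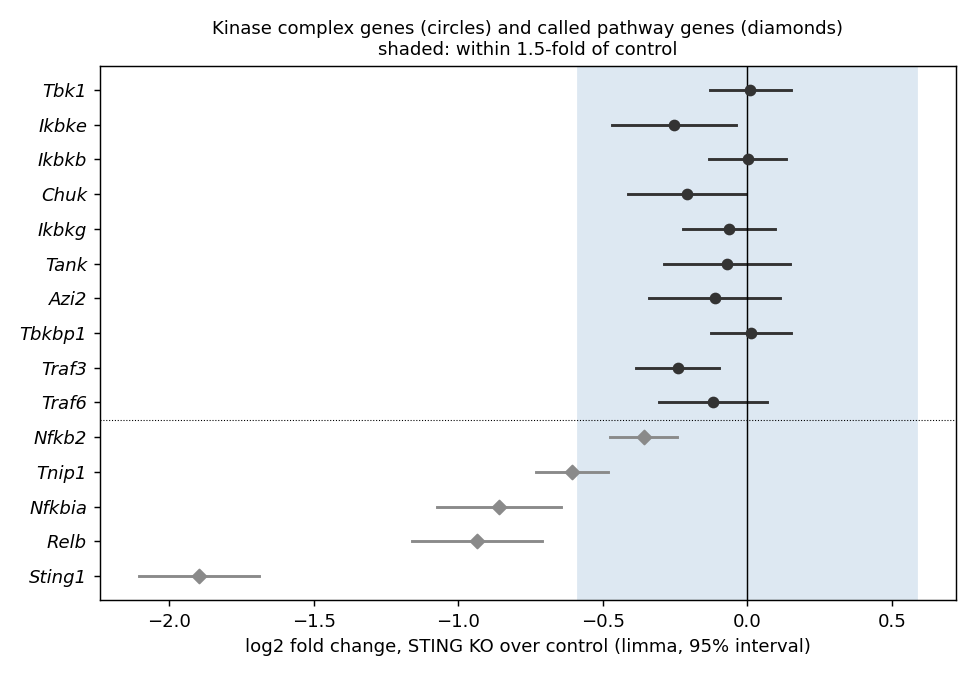
Fold change on the log2 scale (STING KO over control, limma, bars are 95% intervals) for the 10 kinase complex genes (circles) and for the 5 pathway genes called lower (diamonds); the shaded band spans 1.5-fold in both directions. All 10 circles have intervals inside the band, and those of Traf3, Ikbke and Chuk leave out 0.

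The intervals bound how large a difference these libraries allow. For all 10 genes the 95% interval lay within 1.5-fold of control in both directions, which 85.4% of all genes tested did. For 7 of the 10 (Tbk1, Ikbkb, Ikbkg, Tank, Azi2, Tbkbp1 and Traf6) it lay within 1.3-fold, against 70.6% of all genes tested. The lower bounds of Ikbke, Chuk and Traf3 were 72.2%, 75.2% and 76.6% of control. Groups did not overlap for 2 of the 10, both lower, against 12.1% of all genes tested in either direction and 6.32% lower. The median log2 fold change of the 10 was -0.09, beside -0.003 over all genes tested, and 7 of the 10 had a negative sign, beside 50.8% of all genes tested.

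Per length of the longest transcript, the adaptor gene Tbkbp1 was the most abundant of the 10 and Ikbke the least. On the scale of normalized counts per kilobase of the longest annotated transcript, the 6 libraries ranged from 400.3 to 451 for Tbkbp1. They ranged from 224 to 248 for Tbk1 and from 199 to 259 for Tank, which overlap. Traf3 (172 to 223) and Chuk (157 to 207) overlapped next, then Azi2 (125 to 161) and Ikbkb (136 to 145), then Ikbkg (110.1 to 125) and Traf6 (95.9 to 123). These pairs were not separate from each other. Tank overlapped Traf3 and Chuk, Chuk overlapped Azi2, and Azi2 overlapped Ikbkg. Ikbke lay apart from all others at 31.3 to 44.1. By this level Tbkbp1 stood at the 77.3 percentile of all genes tested with a length, Tbk1 at the 62.3 percentile and Ikbke at the 21.7 percentile.

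**Figure D3:**
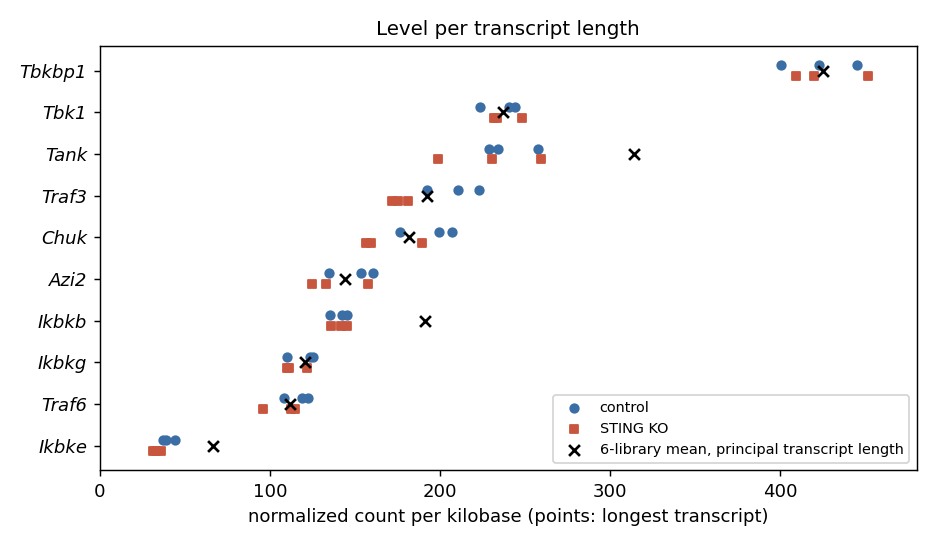
Level of each gene per kilobase in the 3 control (circles) and 3 STING KO (squares) libraries, with the longest transcript as length; crosses give the mean of the 6 libraries with the length of the principal coding transcript. Tbkbp1 is highest and Ikbke lowest by either length, while Tank, Ikbkb and Ikbke shift to higher levels with the principal transcript.

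The order above Ikbke depends on the length chosen. With the mean length of all annotated transcripts Tbk1 came first, at a mean level of 574 per kilobase beside 562 for Tbkbp1, and Ikbke was lowest at 101. With the principal coding transcript, the mean level was 314 per kilobase for Tank in place of 235, 191 for Ikbkb in place of 141 and 66.4 for Ikbke in place of 36.8. Which transcripts L929 cells make was not measured here.

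The balance between related kinases within a library was also compared, over 7 ratios each with a two-sided exact permutation test over the 6 libraries, where 0.1 is the lowest p that 3 against 3 can give. Per kilobase of longest transcript, Ikbke made up 13.2%, 16.5% and 14.0% of the sum of Tbk1 and Ikbke in control and 11.8%, 11.8% and 13.5% in STING KO. STING KO 3 lay above control 1, so the groups overlap (means 14.5 ± 1.71% and 12.4 ± 0.979%, SD, n = 3 each, exact p = 0.2, adjusted p = 0.35). The share is higher with the principal transcript, at means of 23.4% and 20.3%, and with the mean transcript length, at 16.1% and 13.8%. The log2 ratio of Chuk to Ikbkb was 0.46 ± 0.15 for the control and 0.25 ± 0.15 for the STING KO libraries (SD, n = 3 each, exact p = 0.2, adjusted p = 0.35). By the principal transcript these means were 0.02 and -0.19, and by the mean transcript length 0.67 and 0.47. The log2 ratio of Ikbkg to the sum of both IKK kinases was -1.49 ± 0.04 and -1.44 ± 0.04 (SD, n = 3 each, exact p = 0.2, adjusted p = 0.35).

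Among the adaptors, Tbkbp1 had the highest share per kilobase in both groups. Its share of the sum of Tank, Azi2 and Tbkbp1 by the longest transcript was 52.0 ± 2.87% for the control and 53.8 ± 4.37% for the STING KO libraries (SD, n = 3 each, exact p = 0.6, adjusted p = 0.7). The group means were 47.4% and 49.1% by the principal transcript, and 43.7% and 45.5% by the mean transcript length. By the longest transcript Tank held 29.6 ± 1.89% and 28.8 ± 2.92% (exact p = 0.9), and Azi2 held 18.4 ± 1.58% and 17.4 ± 1.53% (SD, n = 3 each, exact p = 0.5). By the longest transcript and with all 6 libraries, none of the 7 ratios reached the smallest possible p. By the mean transcript length, the ratio of Ikbkg to the sum of both IKK kinases had an exact permutation p of 0.1. By the principal transcript it had 0.5. Leaving out 1 library at a time gave exact permutation p-values of 0.1 to 0.4 for the Ikbke share by the longest transcript. The 0.1 came without control 1 and is also the lowest p possible there.

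Most of the 10 genes shared the lowest library of each group. Control 2 was the lowest control library for 7 of the 10, and STING KO 3 the lowest STING KO library for 7 of the 10. Over all genes tested these shares were 39.1% and 40.7%. For 6 genes (Tbk1, Chuk, Tank, Azi2, Traf3 and Traf6) both held, against 27.7% of all genes tested. Ikbke and Tbkbp1 went the other way and were highest in both of these libraries, as were 26.6% of all genes tested. STING KO 2 was the highest STING KO library for 6 of the 10, with Azi2, Tank and Chuk 0.19, 0.18 and 0.17 above their group means on the log2 scale.

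Control 2 and STING KO 3 are the libraries with the highest scores (0.42 and 0.59) on the first principal component of all genes tested. This component holds 40.3% of the variance. Control 1 and STING KO 2 scored -0.07 and -0.0003, and control 3 and STING KO 1 scored -0.60 and -0.34. Libraries named together here also had similar hepatocyte marker sums, and no fit matched them. The part of this component in the differences between groups was not tested. The coefficient of variation of the 10 genes had a median of 6.64% in control and 6.50% in STING KO, beside 6.35% and 7.18% over all genes tested.

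**Figure D4:**
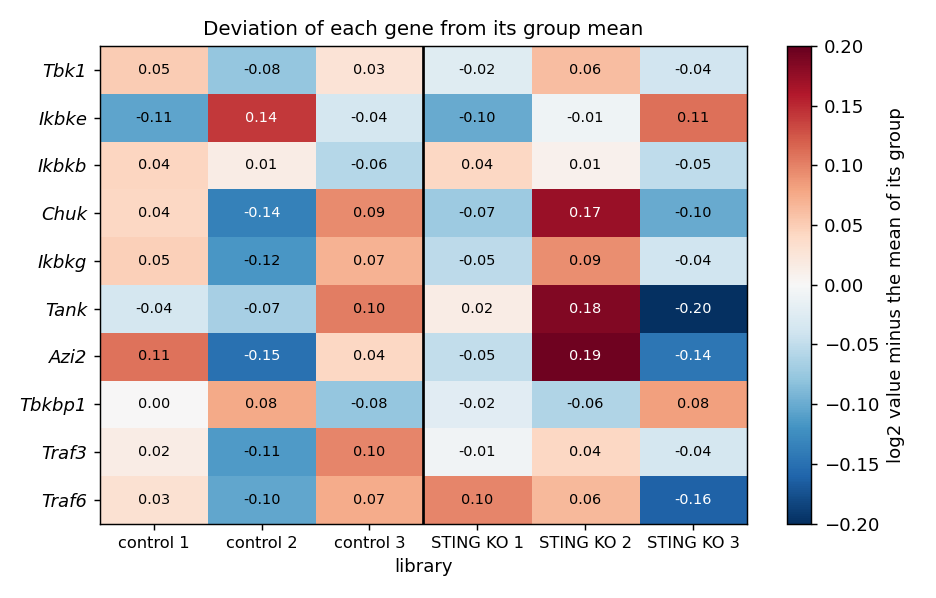
log2 value of each of the 10 genes minus the mean of its own group, for each of the 6 libraries (red above, blue below the group mean). Control 2 and STING KO 3 are blue for most genes and red for Ikbke and Tbkbp1.

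The genes whose profile over the 6 libraries was most like that of Tbk1 were C1galt1c1, encoding a chaperone of a glycosyltransferase, Slbp, encoding the histone stem-loop binding protein, and Mtcl1, encoding a microtubule-binding protein. Their root mean square differences from Tbk1, on log2 values centred on their own means, were 0.0134, 0.0149 and 0.0154. Among the kinase complex genes Ikbkg came nearest, at 0.0468 and rank 581, and Ikbke was farthest, at 0.189 and rank 10053 of the genes tested.

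Around the kinases, the pathway genes called lower in STING KO were, beside Sting1, those of an IkB inhibitor, a pair of NF-kB subunits and a brake on NF-kB. Of 67 listed pathway genes 64 were tested, 5 were called lower and 0 higher, against the 0.258% of all genes tested. At an unadjusted p of 0.05 there were 10, against 6.37% of all genes tested. limma-voom called the same 5 lower and 0 higher, and so did the authors' deposited table. The list holds Sting1, the gene knocked out. The lists were made with earlier results of these data known, so the counts are a description.

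Of 11 genes for substrates of these kinases and the NF-kB subunits they release, 3 were called lower and 10 had a negative sign, at a median log2 fold change of -0.23. Over all genes tested 0.258% were called lower and 50.8% had a negative sign, at a median of -0.003. Nfkbia, encoding the IKK substrate IkB alpha, had 924, 1013 and 921 normalized counts in control and 530, 455 and 596 in STING KO. All STING KO libraries lay far below the controls (log2 fold change -0.86, SE 0.10, limma adjusted p = 0.00348). Relb, encoding the noncanonical NF-kB subunit, was at 52.0% of control (log2 fold change -0.94, SE 0.10, limma adjusted p = 0.0028). Nfkb2, encoding its partner p100, was at 78.0% of control (log2 fold change -0.36, SE 0.05, limma adjusted p = 0.0241) and lost its call without control 1 (adjusted p = 0.241), control 3 (0.185) or STING KO 1 (0.214). Irf3 and Rela, encoding the transcription factors at the ends of both branches and chosen after their values were seen, had log2 fold changes of -0.02 and -0.05 and were not called. Nfkb1 and Nfkbie, chosen likewise, were at -0.23 and -0.38 and were not called (limma adjusted p = 0.428 and 0.588). Irf7, chosen likewise, had the positive sign, at 0.22 (limma adjusted p = 0.752).

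Of 16 tested brakes 1 was called lower, against 0.258% of all genes tested. It was Tnip1, which encodes the A20-binding protein ABIN1, at 65.7% of control (log2 fold change -0.61, SE 0.06, limma adjusted p = 0.00126). Tnfaip3, encoding A20 itself, a gene chosen after its values were seen, had 310 ± 21.9 and 221 ± 25.2 normalized counts (SD, n = 3 each, limma adjusted p = 0.167). Without control 3 and STING KO 1, which leaves 2 samples a group, Nfkbia (0.0879), Tnip1 (0.0879) and Nfkb2 (0.997) were not called by limma, at log2 fold changes of -0.89, -0.55 and -0.35. Relb was still called, at -1.03 (limma adjusted p = 0.0282).

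The lists of upstream adaptors, other TRAFs, the TAK1 arm and partners held no called gene other than Sting1. Of 11 tested upstream adaptors 1, Sting1, was called, and 0 of 4 other TRAFs, 0 of 12 genes of the ubiquitin and TAK1 arm and 0 of 10 cargo receptors, chaperones and binding partners. By unadjusted p at or under 0.05 limma gave 1, 0, 0 and 1 in these lists. Over all genes tested, 0.258% were called and 6.37% had an unadjusted p at or under 0.05. At a share of 0.258%, lists of 4 to 12 genes would mostly hold no called gene, so these counts do not set the lists apart. In these lists limma-voom called none but Sting1. The smallest p among the other TRAFs was that of Traf2, a ligase of TNF receptor signalling, at 95.2% of control, and in the TAK1 arm that of Tab2, a ubiquitin-binding subunit of the TAK1 complex, at 91.9%. Among the partners it was that of Calcoco1, an autophagy receptor, at 111% of control (limma adjusted p = 0.738). Traf5 had a value of 0 in all 6 libraries.

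**Figure D5:**
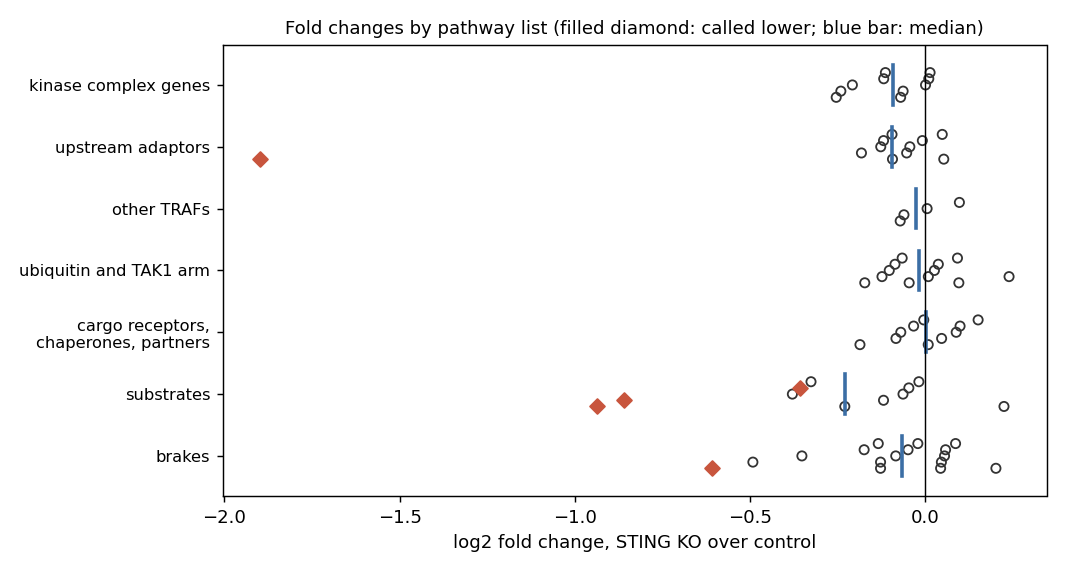
Fold change on the log2 scale (STING KO over control) for each tested gene of the 10 kinase complex genes and of 6 pathway lists; filled diamonds are genes called lower, open circles are not called, and blue bars are list medians. The 5 called genes lie among the upstream adaptors (Sting1), the substrates and the brakes.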

How the data were processed

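Poly(A) RNA-seq values of 6 samples, grouped and numbered by their titles, were analysed. The authors deposited 1 gene table whose sample columns hold a signal, gene counts divided by 1 size factor per library, which shows in the numbers: all nonzero entries of a library (100%) are a common step times a whole number, to within 0.01. Beside these, per the file headers, stand the authors' log2 fold change, p-value and Wald score. Per the submitters' processing notes, with no roles given, DESeq2 1.4.5, RSEM 1.2.12, HISAT2 2.0.4 and Bowtie2 2.2.5 were used with GRCm38 and mm10. Rows repeating an identifier (314) were left out. GENCODE M21 gave coordinates and lengths for 27480 of 27507 identifiers.

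limma 3.58.1 (R 4.3.3, mean-variance trend, no covariate) was fitted on log2(value + 0.1) over all genes with at least 10 in at least 3 samples, with Benjamini-Hochberg adjustment and a threshold of 0.05. The fit was tested on simulated data with independent libraries and larger fold changes than those of the kinase complex genes. That run does not bear on differences as small as theirs. Fold changes on this scale understate changes of low genes.

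The members and lists were chosen with earlier results of these data known. Named genes are the 10, Sting1, called list genes, the smallest p of each list without a call, and the 3 profiles nearest to Tbk1. Irf3, Rela, Nfkb1, Nfkbie, Irf7, Tnfaip3, Traf5, G6pdx, Dcn and Lum stand outside that rule and were named after their values were seen. Alternatives were TMM, upper-quartile and total scaling, a pseudocount of 1, no filter, a mean of at least 5 CPM, limma-voom, a replicate block, leaving out libraries, other transcript lengths and the authors' test. The number of samples limits precision.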

Additional observations from a re-analysis of the deposited data

How the results depend on the processing

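Of 160 values of the 10 kinase complex genes under an alternative, 0 were called, and the smallest adjusted p was 0.199 (Traf3, limma, without control 2). The sign changed in 10 values of 4 genes: Tbk1 (2), Ikbkb (4), Tank (1) and Tbkbp1 (3). Each was within 0.05 of 0 on the log2 scale. The 7 ratios kept their sign except the shares of Tank, at 0.877 percentage points at most, and of Tbkbp1, at -0.507 at least, in fits without control 3 or STING KO 3. The length of the principal transcript and, for levels per kilobase, the mean transcript length were chosen after seeing the data.

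Over all genes, limma called 32 lower and 0 higher. Leaving out 1 library gave 21 to 35 lower and 0 to 2 higher, with 21 lower without control 1 and 2 higher without control 2. The authors' test called 6 higher. Without control 3 and STING KO 1 together 12 genes were called lower, 11 of them among the 32, and 2 pathway genes in place of 5. Same-numbered libraries did not deviate together (correlations of -0.18, -0.18 and -0.49), so the numbers give no pairing. Libraries of different numbers had similar hepatocyte marker sums. These were 800 and 828 in control 1 and STING KO 2, and 357 and 381 in control 2 and STING KO 3. In control 3 and STING KO 1 they were 5868 and 5545. Whether such libraries are pairs was not tested, and no fit matched them. A fit with the replicate block called 18 genes, all lower and all among the 32, with 4 of the 5 pathway genes; Nfkb2 had a limma adjusted p of 0.410 there. The tests planned on recovered reads were not run. Depth was nearly equal between libraries, and the 95% intervals of Ikbke, Chuk and Traf3 reached past 1.3-fold.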
